A study of Mus musculus with 40 samples.

Results

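Mouse oocytes of the secondary follicle stage were compared with oocytes of the large antral stage, the interval over which an oocyte that cannot yet resume meiosis becomes one that can. The members were chosen by sample title, and 16 of the 40 samples of the series belong to the comparison, with 4 replicates of each stage on each of 2 Affymetrix array types, 430A and 430B. Secondary oocytes came from SJLB6 females 12 days old, with 60 oocytes pooled in a sample, and large antral oocytes came from SJLB6 females 24 days old, with 20 oocytes pooled. Oocytes of primary follicles (6 days, 90 oocytes) and of small antral follicles (17 days, 30 oocytes), again with 4 replicates on each array type, lent their spread to the fits, and the small antral samples mark the way between the compared stages. The labels name no treatment and no allele. Replicates are labelled biological without the animals of each pool being named, so p-values measure the spread between these samples. Age, pool size and follicle stage changed together and cannot be told apart. The protocol text of 3 small antral samples on 430B states 12 days and 60 oocytes, as for secondary oocytes. The stage of the title was kept. The position of the small antral stage on 430B is given with and without them, and counts of calls for its steps only with them.

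Growing oocytes are held at prophase of the first meiotic division. Cyclic AMP made in the oocyte keeps protein kinase A active, which holds the cyclin-dependent kinase 1 complex (maturation promoting factor) inactive through Wee-type kinases and against Cdc25 phosphatases. Competence to resume meiosis is gained in the course of growth, while the oocyte stores cell cycle proteins and masked mRNAs. By the end of growth its chromatin condenses around the nucleolus and transcription is shut down. The oocyte also builds a coat of zona pellucida glycoproteins and stays coupled to granulosa cells by gap junctions throughout growth.

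Signals were brought to a common level on each array, and differences are given as log2(signal + 32) of large antral minus secondary, with the standard error (SE) of the fit. On this scale changes of low signals are understated. Levels are compared between stages for 1 probe set at a time and never between genes. A probe set, the group of probes that reports a transcript, was called where limma gave a p below 0.05 after Benjamini-Hochberg adjustment, and "rose" and "fell" are used only of called values.

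On 430A, 5033 of 14924 tested probe sets were called, of which 2308 rose (15.5% of those tested) and 2725 fell (18.3%). On 430B, 1866 of 17887 were called, with 804 that rose (4.49%) and 1062 that fell (5.94%). With a median SE of 0.16 (430A) and 0.34 (430B), the array types differ in the size of change they could resolve and their counts are not set against each other. Large changes were mostly falls. At 4-fold or more, 29 probe sets rose and 90 fell on 430A, and 39 rose and 126 fell on 430B; at 8-fold or more the numbers were 3 and 7 on 430A and 4 and 21 on 430B. The 4 secondary and 4 large antral arrays did not overlap for 4322 of the 5033 called probe sets on 430A and for 1742 of the 1866 on 430B. A call favours such a separation, so these counts describe the called probe sets and add no support to them. With each gene represented by 1 probe set, 1803 of 14925 genes rose (12.1%) and 2221 fell (14.9%), and the median change over all genes was 0.014. These shares pool 9193 genes represented on 430A with 5732 on 430B. The gene lists below were not matched to this mix, so the array type can enter a comparison with these shares. The 430A share of calls that were rises was 45.9%, and 49.4% after quantile normalization.

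**Figure D1:**
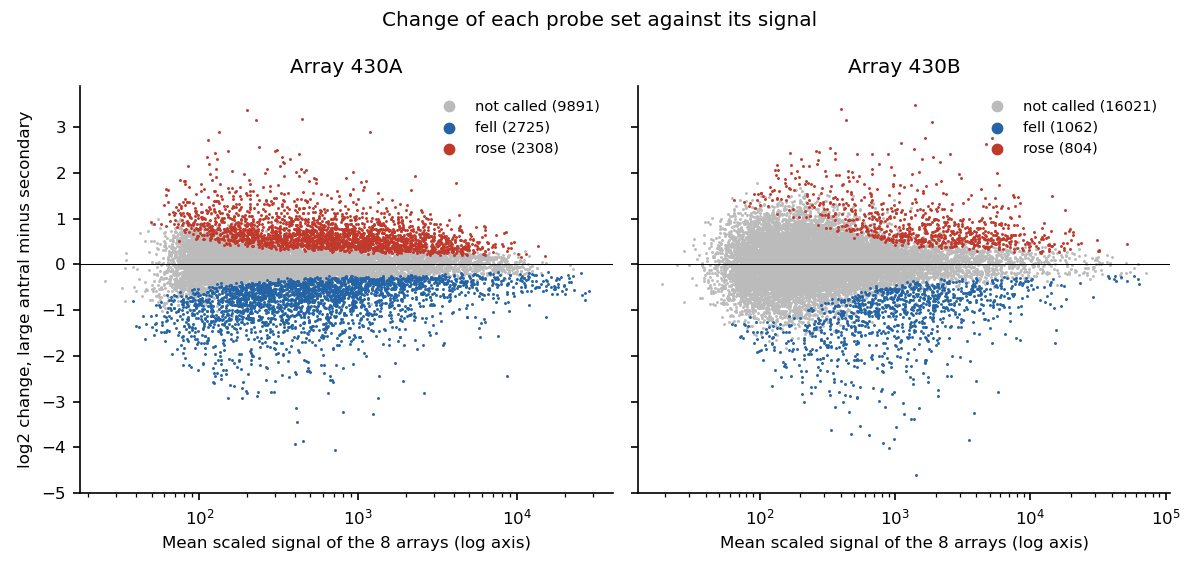
Each point is a tested probe set, placed by its mean scaled signal over the 8 arrays (log axis) and its log2 change from secondary to large antral, in red where it rose, in blue where it fell and in grey where it was not called. Falls reach -4.06 on 430A (Oga) and -4.60 on 430B (Slc30a1), rises reach 3.38 (Gja1) and 3.49 (Csmd3), and nearly all called probe sets at the highest 430A signals lie below 0.

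The largest rise on 430A on this scale was that of Gja1, which encodes connexin 43, a gap junction protein best known from granulosa cells. Its signal was 1.0, 27.1, 8.3 and 1.0 on the secondary arrays and 426.8, 368.8, 404.5 and 350.1 on the large antral arrays. All secondary values lay in the background range and all large antral values far above it, a rise of 3.38 (SE 0.29, adjusted p = 2.8e-08). Since the secondary values are background, the size depends on the pseudocount (4.75 with the smallest tried and 1.91 with the largest, where the 2.54 of Rgn exceeds it), and so does its rank; the same holds for other genes near background at either stage, as for Sp4, at -4.00 and -1.59. The 4 other tested probe sets of Gja1 rose as well, by 1.75 to 3.18. Beside this, the summed signal of 21 granulosa and cumulus markers, Gja1 included, was 5263.6 to 6242.2 in secondary and 5916.6 to 7344.2 in large antral samples. Within these sums Gja1 itself went from a mean of 71.1 to 815.1, so they are not separate from its rise. The part of granulosa and cumulus cells in the rise was not tested. In such bulk samples fewer cells of a type and less RNA per cell cannot be told apart. Crybg1, a crystallin-domain protein, went from 19.9, 16.9, 19.5 and 23.1 to 459.2, 450.8, 455.7 and 367.3 (3.16, SE 0.22, adjusted p = 1.2e-09). Rgn, the calcium-binding protein regucalcin, gave 252.8, 274.0, 223.4 and 266.2 in secondary oocytes and 1939.2, 2120.9, 2357.0 and 1988.5 in large antral oocytes, a rise of 2.90 (SE 0.14, adjusted p = 8.1e-12). For both genes the stages were far apart, and Rgn had already reached 2432.4 on average at the small antral stage.

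Several other leading rises were of cell surface and secretory pathway genes. Egfr, the epidermal growth factor receptor, rose from 110.2, 91.7, 114.0 and 142.2 to 731.4, 727.0, 703.0 and 779.0 (2.40, SE 0.17). The stages did not overlap in this probe set, but of the 6 other tested probe sets of Egfr 1 rose, by 0.53, and 5 were not called (-0.04 to 0.16). Cntn6 (contactin 6, a neuronal adhesion molecule) rose by 2.50, Mep1b (a meprin metalloprotease subunit) by 2.47 and Cdh17 (a cadherin) by 2.30. Man1a, a Golgi mannosidase that trims N-glycans, rose by 2.57, from a mean of 45.3 to 431.6, and its other probe set rose by 1.73. Trim31 (a ubiquitin ligase), Tmem229b, Bcl2l15 (of the Bcl-2 family) and Slc9b1 (of the sodium-proton exchanger family) rose by 2.29 to 2.47. For all of these the large antral arrays lay above every secondary array.

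On 430B the largest rise was that of Csmd3, a large transmembrane protein with CUB and sushi domains. Its signal was 192.6, 291.9, 237.7 and 122.4 in secondary oocytes and 2423.6, 2552.9, 2968.1 and 2476.8 in large antral oocytes (3.49, SE 0.28, adjusted p = 1.8e-08). Mei4, which is needed for the DNA breaks that start meiotic recombination in fetal oocytes, went from 406.9, 366.0, 273.6 and 364.5 to 3851.0, 2298.0, 2696.9 and 4727.1 (3.11, SE 0.20, adjusted p = 1.2e-09). The 4 large antral values of Mei4 were spread widely but all exceeded the secondary values several times over. Selp (P-selectin) rose by 3.39, Syt11 (a synaptotagmin) by 3.16, Chst11 (a chondroitin sulfotransferase) by 2.76 and Pnma5 by 2.75. Pnma5 was bright at both stages, at 1319.2 ± 96.9 and 9079.7 ± 867.3 (SD, n = 4).

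The largest fall on 430A was that of Oga, the enzyme that removes O-linked N-acetylglucosamine from proteins. The probe set with this fall gave 1269.7, 1744.9, 1345.3 and 1128.4 in secondary oocytes and 27.4, 81.6, 67.4 and 39.0 in large antral oocytes, a fall to near background (-4.06, SE 0.23, adjusted p = 1e-10). The 4 other tested probe sets of Oga changed less: 2 fell (-0.34 and -0.79) and 2 were not called (both -0.26). Bhlhe40, a transcriptional repressor, went from 805.4, 993.0, 831.1 and 859.8 to between 22.8 and 36.7 (-3.85, SE 0.16, adjusted p = 3.3e-12). Hmga2, a chromatin protein of growing cells, went from 2387.1, 2381.5, 1965.3 and 2356.9 to 173.8, 199.9, 221.9 and 234.1 (-3.27, SE 0.16, adjusted p = 8.1e-12). No large antral array came near a secondary array for these genes. The sulfate transporter Slc26a2 fell by 3.92, and its 2 other probe sets fell by 0.91 and 2.25. The transcription factor Sp4 (-2.92), the histone demethylase family member Riox1 (-2.92) and Gtf3c4, a subunit of the RNA polymerase III factor TFIIIC (-2.82), were at 8.3 to 41.3 on every large antral array. Esyt3, Tmx1, Rnf6, Scamp1 and Arfgap2, which act at membranes, in protein folding or in ubiquitin transfer, fell (-2.87 to -3.44).

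On 430B the zinc exporter Slc30a1 gave the largest fall, from 2842.9, 3082.4, 2803.9 and 2436.7 to 39.7, 113.5, 108.3 and 91.9 (-4.60, SE 0.22, adjusted p = 1.2e-11). The probe set of Slc30a1 on 430A went the other way, from a mean of 276.5 (0.53, SE 0.19, adjusted p = 0.037), so the direction for this gene depends on the probe set. Fzd5, a Wnt receptor, went from 1723.3, 2001.9, 2074.6 and 1614.2 to 199.9, 100.4, 170.2 and 20.0 (-3.81, SE 0.31). Rab11fip2, an effector of recycling endosomes, fell by 3.90, and the zinc finger genes Zfp217 and Zfp367 fell (-3.84 and -3.73). Haghl fell by 3.71. Zfp217 remained at 242.4 to 894.8 in large antral oocytes, from 6112.1 to 7698.0 in secondary oocytes.

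Of the 36 genes that lead the rises and falls, 22 had another tested probe set. At least 1 of these others moved the same way for 15 genes, 1 gene had an opposite call (Slc30a1), and for 6 none of the others was called. Over the whole of both arrays, 1077 genes had 2 or more called probe sets, and for 194 of them (18%) these were called in opposite directions. A fall or rise of a gene below is that of its representing probe set. Other probe sets are given for some genes only, and silence on them does not mean that they moved alike. For Dnajb1 (0.14), Cox6c (0.22), Arpc4 (0.16) and Polr3e (-0.02), all named below as falling, the other tested probe set was not called.

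**Figure D2:**
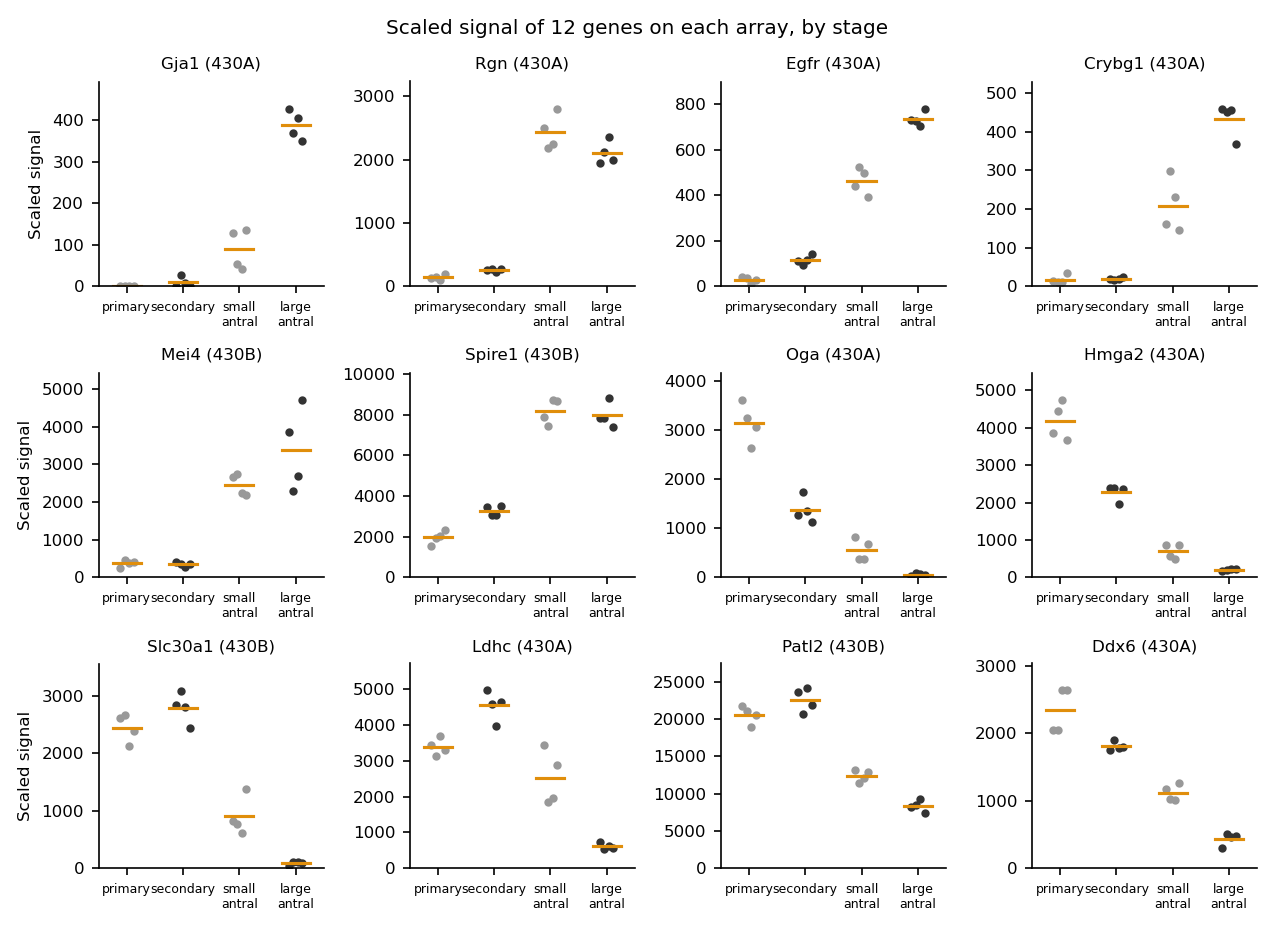
Scaled signal on every array (points) and the mean of the 4 replicates (orange bars) for 12 genes at the primary, secondary, small antral and large antral stages, each axis starting at 0, with the compared stages in black. Gja1, Egfr and Crybg1 climb at each step after the secondary stage, the small antral values of Rgn and Spire1 overlap their large antral values (for Spire1 also on the array with matching protocol text, at 7867.3), and Oga, Hmga2 and Ddx6 decline from the primary stage on.

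The promoters of the genes with the largest rise and the largest fall on each array type, among those with a single promoter in the RefSeq table (GRCm38.p6; 250 bases before to 50 after the start), are shown for their CpG content. CG dinucleotides are in capitals.
Gja1: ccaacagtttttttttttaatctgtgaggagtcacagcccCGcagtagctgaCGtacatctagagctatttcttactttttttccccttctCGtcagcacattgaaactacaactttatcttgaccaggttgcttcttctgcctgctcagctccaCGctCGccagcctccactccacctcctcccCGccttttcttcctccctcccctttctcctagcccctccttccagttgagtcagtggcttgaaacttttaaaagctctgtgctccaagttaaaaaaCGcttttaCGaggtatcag
Selp: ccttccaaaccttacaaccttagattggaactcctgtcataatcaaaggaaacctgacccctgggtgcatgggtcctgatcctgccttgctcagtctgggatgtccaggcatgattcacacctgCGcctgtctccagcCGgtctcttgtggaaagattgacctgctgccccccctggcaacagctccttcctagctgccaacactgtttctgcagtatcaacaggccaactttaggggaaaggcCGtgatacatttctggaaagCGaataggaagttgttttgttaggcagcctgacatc
Oga: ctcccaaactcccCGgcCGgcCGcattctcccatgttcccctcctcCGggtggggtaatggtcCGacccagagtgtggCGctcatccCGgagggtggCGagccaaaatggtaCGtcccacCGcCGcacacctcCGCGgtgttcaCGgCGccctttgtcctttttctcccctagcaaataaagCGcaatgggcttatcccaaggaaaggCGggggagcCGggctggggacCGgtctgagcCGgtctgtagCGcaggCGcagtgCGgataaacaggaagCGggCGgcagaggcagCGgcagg
Slc30a1: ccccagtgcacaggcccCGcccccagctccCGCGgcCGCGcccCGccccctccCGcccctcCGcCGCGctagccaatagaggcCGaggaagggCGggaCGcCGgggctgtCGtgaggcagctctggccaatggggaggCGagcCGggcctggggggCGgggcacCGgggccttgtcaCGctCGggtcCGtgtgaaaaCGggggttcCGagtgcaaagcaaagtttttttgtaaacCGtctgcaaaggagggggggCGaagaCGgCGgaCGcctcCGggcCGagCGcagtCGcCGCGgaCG
Gja1 (chr10:56377050-56377349, plus strand) and Selp (chr1:164115014-164115313, plus strand), which rose, hold 8 and 4 CG. Oga (chr19:45783504-45783803, minus strand) and Slc30a1 (chr1:191906531-191906830, plus strand), which fell on the probe sets above, hold 26 and 36. The median over 32851 promoters of this length in the table was 7, with quartiles of 3 and 20, and over the tested genes with a single promoter it was 19. Man1a, which rose, holds 38 CG, and Riox1, which fell, holds 10, so the leading genes do not all follow this split. Promoters were found for 79.6% of the tested genes and a single promoter for 64.2%, which is too few, so that a comparison of the genes that rose with those that fell is void and its values are not reported.

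Regulators of the meiotic arrest moved in both directions. Of 19 tested genes of cyclic AMP signalling, 5 rose and 3 fell (26.3% and 15.8%), with a median of 0.20. Gnas, the G protein subunit that drives cyclic AMP synthesis, gave 4398.0, 5062.9, 4406.1 and 4148.0 in secondary oocytes and 3070.0, 2488.1, 2890.2 and 2458.3 in large antral oocytes (-0.72, SE 0.09, adjusted p = 2.9e-06). Prkar2b, a regulatory subunit of protein kinase A, went from 799.3, 703.1, 908.3 and 725.9 to 2322.1, 2616.7, 3241.1 and 2364.6 (1.70, SE 0.21, adjusted p = 5.7e-06). Stages did not overlap for either gene, and Akap1, which anchors the kinase, rose by 0.68. The receptor Gpr3, whose constant activity maintains arrest, was at 909.2 ± 59.4 and 995.1 ± 94.8 (SD, n = 4), a difference of 0.12 that was not called (adjusted p = 0.53). Pde3a, the phosphodiesterase that ends the arrest, was near background at both stages on its representing probe set (102.4 and 90.7, adjusted p = 0.71). Its other probe set, at 53.1 and 120.1, was not called either (0.85, adjusted p = 0.13). Leaving out large antral replicate 1 lowered the number of rising genes in this list from 5 to 3.

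Among 31 genes of maturation promoting factor and its regulators, 9 rose and 7 fell (29% and 22.6%), with a median of 0.09. Cyclins changed most. Ccne2, a cyclin of the entry into S phase, gave 991.0, 970.2, 1410.1 and 1246.1 in secondary oocytes and 111.0, 158.6, 170.1 and 107.1 in large antral oocytes (-2.82, SE 0.18, adjusted p = 5.6e-10). Ccnb3, a B-type cyclin that acts in the first meiotic division, went the other way, from 170.1, 121.4, 215.1 and 149.1 to 688.5, 708.8, 813.0 and 791.6 (2.02, SE 0.14, adjusted p = 1.3e-09). Each of the 4 replicates of Ccnb3 lay above every secondary value, and Ccnh, the cyclin of the Cdk-activating kinase, rose by 0.94. The kinase Cdk1 itself fell by 0.41, from 4162.0 ± 225.9 to 3115.6 ± 160.8 (SD, n = 4, adjusted p = 0.00045). Its activating phosphatase Cdc25b went from 838.9 to 1155.1 (0.48, adjusted p = 0.013), a call lost without secondary replicate 4 (0.33, adjusted p = 0.061). Plk1, a kinase that feeds the activation of Cdk1, rose by 0.41 and lost its call without large antral replicate 1 (0.31, adjusted p = 0.051). Ccnb2 showed a difference of 0.24 that was not called (adjusted p = 0.086) and was called without secondary replicate 4 (0.30, adjusted p = 0.043). Wee2, the oocyte kinase that inhibits Cdk1, was bright and level, at means of 25978.3 and 25981.4 (adjusted p = 0.99).

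The cytostatic pathway and the anaphase promoting complex act after meiosis resumes. Of 11 tested genes of the Mos pathway 2 fell and 1 rose (18.2% and 9.09%, beside 14.9% and 12.1% of all genes), and 1 fell under the strict filter on low signals. Mos, the kinase that holds eggs at metaphase of the second division, was at 9249.6, 8903.0, 7997.3 and 9734.0 and then at 7513.2, 6833.3, 6579.2 and 6751.7 (-0.37, SE 0.08, adjusted p = 0.0015). Fbxo43 (Emi2), the inhibitor of the anaphase promoting complex in eggs, gave 165.8, 122.4, 117.0 and 184.5 and then 39.0, 30.1, 34.0 and 12.6, and so fell by 1.56 from a low level (SE 0.25). Dusp7, a phosphatase of this pathway, rose by 0.58. Of 19 genes of the complex with securin and separase, 7 fell and 4 rose (36.8% and 21.1%). Ube2c, its ubiquitin-conjugating enzyme, fell from 1676.0 to 756.7 (-1.11, SE 0.09), the securin Pttg1 fell by 0.56 and the subunit Anapc5 by 0.63. The fall of Pttg1 was that of a very bright probe set, at a mean of 26969.6 in secondary oocytes. Its other probe sets were not called (-0.11 and 0.63). Without secondary replicate 1 the counts of this complex were 4 that fell and 2 that rose.

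**Figure D3:**
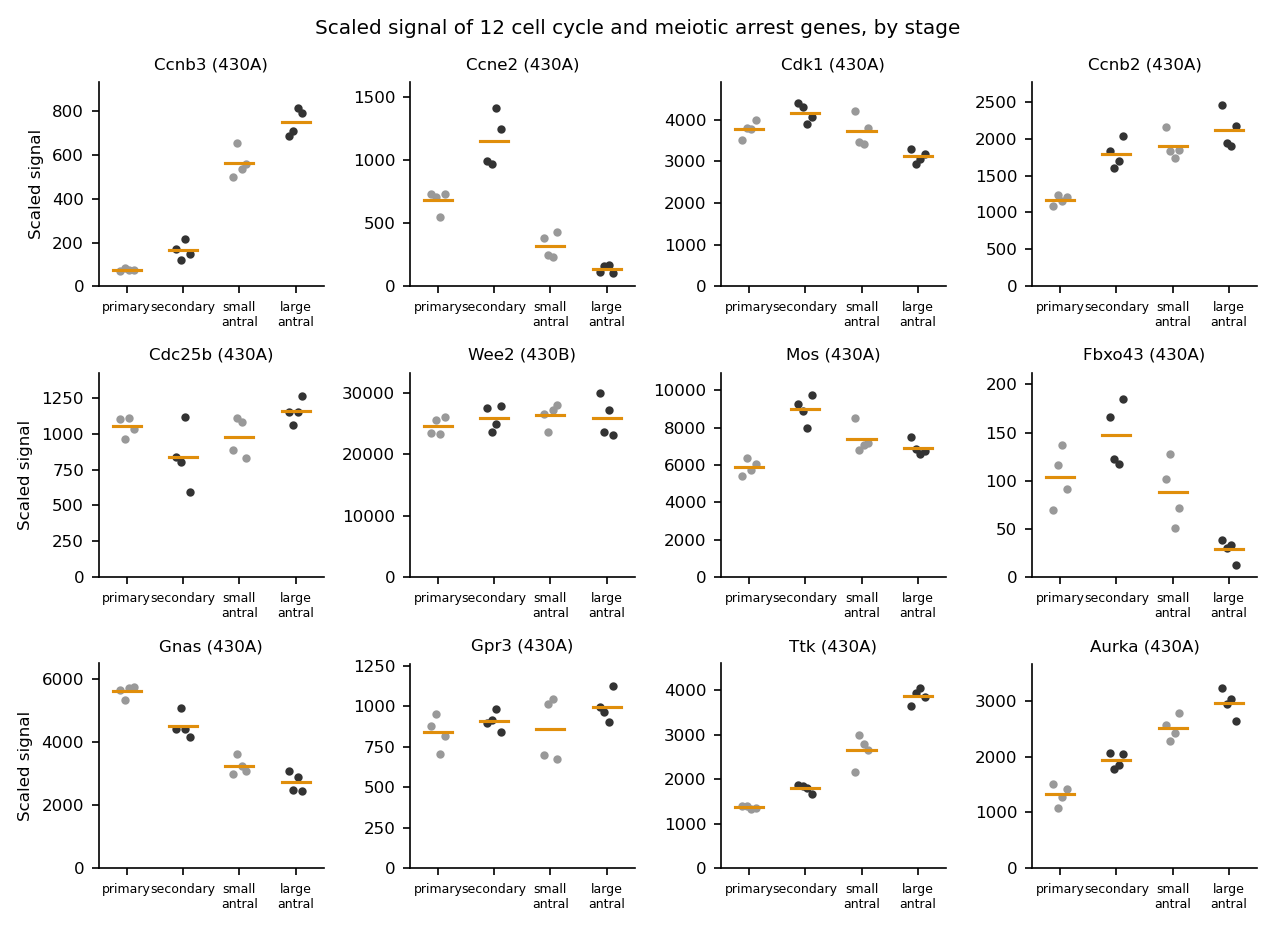
Scaled signal on every array (points) and the mean of the 4 replicates (orange bars) at 4 stages for 12 genes of the cell cycle and of meiotic arrest, each axis starting at 0, with the compared stages in black. Ccnb3 climbs and Ccne2 declines after the secondary stage, Ttk and Aurka are highest at the large antral stage, and Wee2 and Gpr3 show overlapping secondary and large antral values.

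Spindle genes were mixed, and those of the actin cortex held some of the clearest rises. Of 34 genes of the spindle checkpoint, Aurora kinases and kinetochore, 7 rose and 6 fell (20.6% and 17.6%). Ttk (Mps1), the kinase that starts checkpoint signalling, gave 1875.2, 1855.1, 1800.0 and 1674.0 in secondary oocytes and 3645.5, 3947.4, 4051.2 and 3849.0 in large antral oocytes (1.09, SE 0.09, adjusted p = 1.7e-08), with a narrow spread on both sides. Aurka, the spindle pole kinase, rose by 0.60, while Trip13, which takes checkpoint complexes apart, fell by 0.96. Of 22 genes of the kinesin list, not all of them motors of the spindle, 4 rose and 2 fell (18.2% and 9.09%). Among them Kif22 and Kif20b rose by 0.47 and 0.54, and Kif16b fell by 0.79. Of 28 genes of microtubule organizing centres, 4 rose and 6 fell (14.3% and 21.4%), and 7 rose in a fit of the 8 compared arrays alone. Ran, whose GTP-bound form directs spindle assembly around chromatin, fell from 6639.2 to 2980.2 (-1.15, SE 0.08), and the augmin subunits Haus8 and Haus7 went apart, by -1.02 and 0.96. The call of Kif20b was lost without a mean-variance trend (adjusted p = 0.064), and 1 of the 2 kinesin falls was lost without secondary replicate 1 or without large antral replicate 2.

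In the actin list 8 of 29 genes rose and 5 fell (27.6% and 17.2%), with a median of 0.13. Spire1, an actin nucleator that acts in moving the meiotic spindle to the cortex, went from 3449.3, 3042.8, 3084.1 and 3493.3 to 7820.4, 7820.7, 8798.5 and 7414.5 (1.28, SE 0.11, adjusted p = 4.9e-08). Its partners in the same process, named after their values were seen, rose too: Fmn2 (formin 2) from 1521.3 ± 279.2 to 2537.4 ± 191.6 and Spire2 from 375.3 ± 85.2 to 637.2 ± 40.9 (SD, n = 4; 0.74 for each). By contrast Arpc4, a subunit of the Arp2/3 complex that nucleates branched actin, fell by 1.29, and cortactin (Cttn), which binds that complex, fell by 1.19.

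For genes of the egg coat, the egg surface and the maternal stores, several calls depended on how the arrays were scaled. Of 13 genes of the zona pellucida and oocyte-secreted factors, 6 fell and 3 rose (46.2% and 23.1%), with a median of -0.27. After quantile normalization 4 fell and 4 rose, and the median was 0.12. Zp3, the zona protein that binds sperm in classical models, was at 28128.0, 22656.8, 22992.5 and 23595.8 and then at 17633.3, 13919.1, 14386.5 and 16339.3 (-0.64, SE 0.08; -0.27 after quantile normalization). Gdf9, the growth factor by which oocytes act on granulosa cells, went from 34169.2, 33393.0, 32624.5 and 29309.0 to 21492.1, 20069.7, 18810.1 and 23261.0 (-0.63, SE 0.07; -0.19 after quantile normalization). Both stayed called under either scaling, while the fall of Zp2 (-0.50) was lost after quantile normalization (-0.09, adjusted p = 0.22). Of the 14 oocyte markers set down for checking the cell type, 0 rose and 10 fell, with a median of -0.45; after quantile normalization 1 rose and 6 fell, with a median of -0.15. Their summed signal was 255064.6 to 274378.2 on the secondary arrays and 200268.8 to 226902.7 on the large antral arrays.

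The same was seen across 430A. Of 114 probe sets with a mean signal of 10000 or more, 72 fell and 5 rose (63.2% and 4.39%), with a median of -0.29; after scaling to the same median 61 fell and 5 rose, and after quantile normalization 25 fell and 26 rose, with a median of -0.01. Between 1000 and 10000 the shares that rose and fell were 23.7% and 20.6% and moved to 23% and 21.7% with quantile normalization. On 430B the 226 probe sets at 10000 or more held 50 that rose and 34 that fell. The share of all 430A signal taken by the 100 brightest probe sets was 11.08% ± 0.275 in secondary and 9.175% ± 0.411 in large antral oocytes (SD, n = 4; exact two-sided permutation test, p = 0.0286, the smallest 4 against 4 allows). Small falls of very bright 430A probe sets are therefore values that depend on the scaling.

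**Figure D4:**
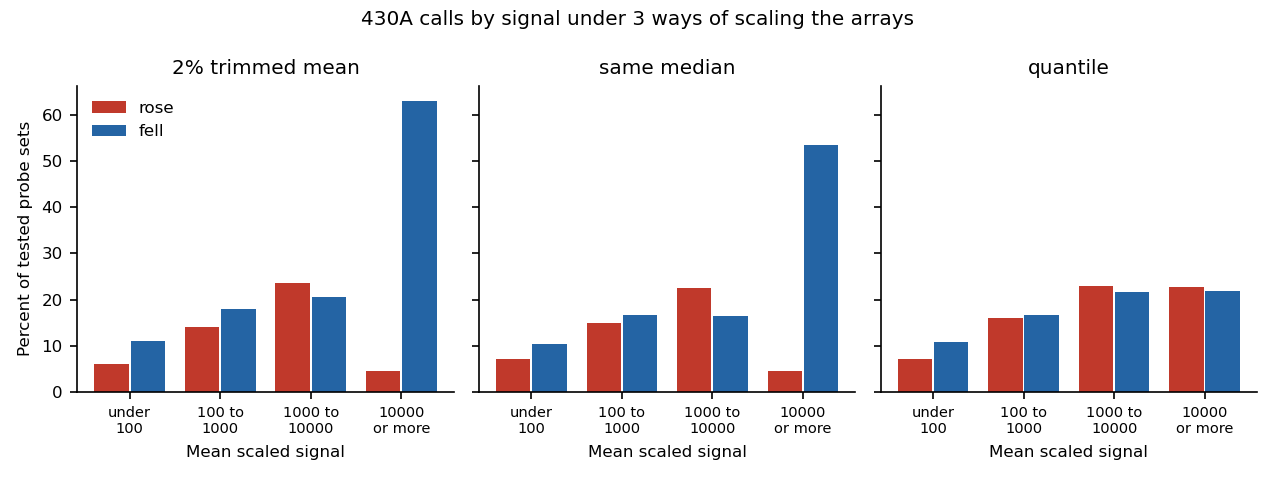
Bars give the percent of tested 430A probe sets that rose (red) or fell (blue) from secondary to large antral, in 4 ranges of mean scaled signal, under the 3 ways of scaling the arrays. At 10000 or more, 63.2% fell and 4.39% rose with the trimmed mean, 53.5% and 4.39% with the same median, and 21.9% and 22.8% with quantile normalization.

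Khdc3 and Cd9 fell under all 3 ways of scaling. Of 29 maternal-effect and subcortical complex genes 12 fell and 7 rose (41.4% and 24.1%). With quantile normalization 7 fell and 8 rose. Khdc3 (Filia), a subunit of the subcortical maternal complex, gave 24802.2, 22892.2, 20616.6 and 25502.8 in secondary oocytes and 6251.1, 7764.2, 8022.4 and 6402.1 in large antral oocytes (-1.72, SE 0.12, adjusted p = 4.3e-09; -1.75 after quantile normalization). Khdc1a, of a family of near-identical genes whose signals may mix, fell by 1.47. Nlrp5 (Mater), of the same complex as Khdc3, fell by 0.50, a call lost after quantile normalization (-0.12, adjusted p = 0.20), and Cdh1 (E-cadherin) rose by 1.03. The receptor Kit, through which granulosa cells signal to the oocyte, was at 2964.8 and 3231.3 and not called (adjusted p = 0.47), while another of its probe sets fell by 0.71. In the list of egg surface, fertilization and activation genes 8 of 27 fell and 0 rose (29.6% and 0%), and 1 rose after quantile normalization. Cd9, the tetraspanin needed for sperm fusion, went from 2817.9, 2376.6, 2131.2 and 2111.9 to 600.3, 851.9, 833.4 and 682.8 (-1.63, SE 0.15, adjusted p = 7.9e-08). Stx3, a membrane fusion protein, fell by 1.02, and Oas1e, of a family of close copies, by 0.64. Dppa3 (Stella) was at 11067.7 and 9414.9 and not called (adjusted p = 0.15).

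Chromatin genes moved in both directions. Of 19 DNA methylation and imprint factors 5 rose and 5 fell (26.3% each). Dnmt3a, the enzyme that sets methylation in growing oocytes, fell by 0.82 on the representing probe set (from 1209.7 to 663.9, adjusted p = 0.0046), whereas of its 4 other probe sets 1 rose by 0.51 and 3 were not called. Its cofactor Dnmt3l rose by 0.62, from 567.2, 425.2, 531.7 and 498.0 to 737.0, 793.1, 850.3 and 790.2, and Kdm1b, the demethylase required before methylation can be set, fell by 0.82 from 16423.6 to 9474.6. Zfp445, which keeps imprints methylated in the embryo, fell by 0.91 on its representing probe set, from 498.5 to 255.4. Its other probe sets were not called (0.04, and 0.18 on 430B). Of 67 histone-modifying enzymes 11 rose and 9 fell (16.4% and 13.4%), close to the shares over all genes. Nsd1, a histone methyltransferase, went from 2953.3, 5459.7, 4214.2 and 3209.8 to 11092.0, 10154.3, 12245.6 and 10754.4 (1.51, SE 0.17), while another probe set of Nsd1 fell by 0.86. The acetyltransferase Kat6a (-1.20) and the deacetylase Hdac11 (-1.15) fell. Among 25 histones and histone chaperones 6 fell and 2 rose (24% and 8%). The falls were led by the linker histone H1f2 (-1.59) and the variant H2az1 (-1.47, from 4113.4 to 1472.4), and the oocyte linker histone H1f8 fell by 0.41. Slbp, which binds histone mRNA, fell by 0.32 and was not called after quantile normalization (-0.10). The 11 rises of the histone-modifying enzymes were 7 without secondary replicate 1, without secondary replicate 4 or without large antral replicate 3.

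Genes that store, translate and clear maternal mRNA included falls of up to 4-fold. Of 47 tested genes of mRNA storage and translational control 11 rose and 14 fell (23.4% and 29.8%), with a median of 0.02. Ddx6, a helicase of mRNA storage granules, went from 1747.1, 1902.7, 1784.8 and 1795.4 to 294.7, 502.3, 467.6 and 482.1 (-2.0, SE 0.14, adjusted p = 1.3e-09). Patl2, an oocyte translational repressor, went from 23652.9, 20703.9, 24124.6 and 21872.3 to 8271.0, 8445.0, 9334.2 and 7453.8 (-1.43, SE 0.09, adjusted p = 2.8e-10), and Nanos1 fell by 1.42. The fall of each was many times the spread within a stage. Among the poly(A)-binding proteins, named after their values were seen, Pabpc1 and Pabpc4 fell (-0.71 and -1.07), while the oocyte form Pabpc1l rose from 2550.2 ± 150.1 to 4855.9 ± 489.6 (SD, n = 4; 0.92, adjusted p = 6.9e-06). Ybx2 (MSY2), the main mRNA-packaging protein of oocytes, was at 1700.2 and 1768.9 (adjusted p = 0.84). The 11 rises of this list were 7 without large antral replicate 2 or 3.

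Of 47 genes of deadenylation and decay 8 rose and 11 fell (17% and 23.4%), with a median of 0.09. Ythdf1, a reader of methylated mRNA, fell from 5276.6 to 1537.6 (-1.76, SE 0.08), the deadenylase subunit Cnot6 by 1.43 and its adaptor Tob1 by 1.12. Btg4 and Cnot6l, which clear maternal mRNA once meiosis resumes, were not called on their representing probe sets (0.03 and 0.12), although Btg4 was called after quantile normalization (0.38). Another probe set of Cnot6l rose by 0.67, and its remaining ones were not called (0.28 and 0.32). Of 27 genes of small RNA pathways 6 fell and 3 rose (22.2% and 11.1%), and the piRNA pathway led the falls. Piwil2, a piRNA-binding protein, went from 395.1, 352.1, 458.0 and 320.8 to 83.9, 99.5, 108.6 and 92.6 (-1.68, SE 0.13, adjusted p = 3.7e-09), Ddx4 (mouse vasa homolog) fell by 1.56 and Tdrd9 by 1.03. The 3 rises were 1 without large antral replicate 4.

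Oocyte transcription factors and the transcription machinery changed in both directions, with both shares above the 14.9% that fell and 12.1% that rose of all genes. These shares also lay above the 18.3% that fell and 15.5% that rose of 430A probe sets. Of 26 oocyte regulators 7 fell and 5 rose (26.9% and 19.2%), and the 5 were 3 without large antral replicate 4. Figla, which activates the zona genes, was at 1361.6, 1355.4, 1352.6 and 1309.6 and then at 618.4, 581.0, 561.7 and 694.3 (-1.10, SE 0.12, adjusted p = 4.4e-07). Yy1, a zinc finger regulator, fell by 1.40, Sohlh1, a factor of early folliculogenesis, by 0.95 and Taf4b by 0.68, while Nobox, needed from the primordial stage on, was at 4845.0 and 5176.8 and not called (adjusted p = 0.54). Of 67 genes of RNA polymerase II and III transcription 16 fell and 13 rose (23.9% and 19.4%), or 13 and 12 after scaling to the same median, among them the elongation kinase Cdk9 (-1.30), the general factor subunit Gtf2e1 (-1.68) and Polr3e (-1.24).

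The nucleolar list, which makes ribosomes, had 20 falls and 11 rises among 79 genes (25.3% and 13.9%), and the 11 rises were 7 without large antral replicate 1. Nob1, which matures the small ribosomal subunit, went from 2889.1, 2407.0, 2777.7 and 2938.4 to 691.6, 641.8, 756.0 and 448.4 (-2.08, SE 0.14, adjusted p = 1.7e-09). Ubtf and Taf1c, both factors of RNA polymerase I, fell by 0.93 and 1.72. Cytoplasmic ribosomal proteins changed little: 7 of 44 rose and 5 fell (15.9% and 11.4%), and the range over the list was -0.59 to 0.94, where Rpl22l1 rose by 0.94, Rps2 fell by 0.33 and Rpl7 by 0.43. Their 7 rises were 4 without large antral replicate 1. Of 38 translation initiation factors 8 rose and 7 fell (21.1% and 18.4%), with the largest fall in Eif1a (-1.20), and Eif4h and Eif2b1 fell by 0.69 and 0.52. The 8 rises were 5 without secondary replicate 1, 2 or 4.

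RNA processing and nuclear transport changed in both directions. Of 79 splicing genes 18 rose and 11 fell (22.8% and 13.9%), with a median of 0.11, although the genes with the smallest adjusted p all fell: Srsf9 by 1.28, Snrpb by 1.29 and Lsm8 by 0.83. The 11 falls were 7 after scaling to the same median or without large antral replicate 3. Of 62 nuclear pore and transport genes 17 fell and 14 rose (27.4% and 22.6%), among them the pore scaffold subunit Nup133 (-1.05), the importin Kpna4 (-1.77) and the exportin Xpo1 (-0.84). Their 14 rises were 8 without large antral replicate 3 and 9 without large antral replicate 1 or secondary replicate 4. In the proteasome 9 of 38 genes rose and 5 fell (23.7% and 13.2%), but the catalytic subunit Psmb5 gave the largest change, from 7464.5 to 3311.3 (-1.16, SE 0.11), and Psmb3 and Psmb2 fell by 0.50 and 0.48.

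Chaperones had the widest excess of falling over rising shares among the 37 lists. Of 51 heat shock proteins and chaperones 23 fell and 5 rose (45.1% and 9.8%), with a median of -0.26, and 22 fell under both other scalings. Hsph1, a co-chaperone of the Hsp70 family, went from 12939.1, 12544.6, 12065.9 and 10345.4 to 5549.0, 6144.0, 5909.9 and 5861.9 (-1.02, SE 0.09, adjusted p = 1.9e-08). Dnajb1, of the Hsp40 family, gave 8169.5, 6899.7, 7959.3 and 7330.7 and then 4807.6, 4728.6, 4652.5 and 4707.7 (-0.68, SE 0.07, adjusted p = 1.1e-07). Both genes were lower on every large antral array than on any secondary array. In contrast Fkbp5, a co-chaperone of steroid receptors, rose from 2108.9 to 3874.7 (0.87, SE 0.11). The CCT chaperonin, which folds actin and tubulin, was singled out after its values were seen. Of its 8 subunits 6 fell on their representing probe sets (-0.33 to -0.82), while Cct5 and Cct8 were not called (-0.11 and 0.02). The direction for Cct3 depends on the probe set, with 1 that fell by 0.35 and 1 that rose by 0.75.

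Mitochondrial genes also fell more often than they rose. Of 72 respiratory chain and ATP synthase subunits 21 fell and 8 rose (29.2% and 11.1%), with a median of -0.09, and of 76 mitochondrial ribosomal proteins 18 fell and 7 rose (23.7% and 9.21%). Uqcrc1, a core subunit of complex III, went from 1313.0, 1103.6, 1201.9 and 1142.3 to 348.9, 395.2, 425.0 and 427.9 (-1.50, SE 0.11, adjusted p = 4.1e-09), Cox6c of complex IV fell by 0.89 and Atp5g3 of ATP synthase by 0.65. Mrps26 fell from 1395.0 to 416.8 (-1.67), Mrps34 by 1.12 and Mrpl27 by 0.69. The falls of both lists stayed within 1.5 times these counts whichever of the 8 compared arrays was left out, but the 8 rises of the respiratory list were 3 without large antral replicate 1, 4 without secondary replicate 2 and 5 without large antral replicate 2, and the 7 rises of the ribosomal list were 4 without secondary replicate 2 or 4 or large antral replicate 1 or 2. After scaling to the same median 14 respiratory genes fell and 8 rose.

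Energy metabolism outside the respiratory chain included changes of lactate dehydrogenases, which interconvert lactate and pyruvate, the main fuel of oocytes. Ldhc, the germ cell isozyme, went from 4974.4, 4592.6, 3973.8 and 4639.5 to 733.1, 547.2, 624.4 and 578.3 (-2.81, SE 0.15, adjusted p = 4.2e-11). Ldhb, the main isozyme of oocytes, fell from 33592.0 ± 3578.7 to 19574.2 ± 2113.9 (-0.78), and Ldha rose from 29.1 ± 16.8 to 205.1 ± 34.0 (SD, n = 4; 1.98, adjusted p = 4.3e-06); both were named after their values were seen. The monocarboxylate transporter Slc16a1 fell by 1.65 and Taldo1, of the pentose phosphate pathway, by 0.98, and in all 6 of 31 genes of this list fell and 3 rose (19.4% and 9.68%). Of 22 genes of fatty acid oxidation 6 fell and 2 rose (27.3% and 9.09%), with 0 rises left without secondary replicate 4. Eci1 fell by 0.95, Etfdh by 0.81 and Acsl4 by 1.25, the last with another probe set that rose by 0.99. Cholesterol synthesis had 2 rises and 2 falls among 19 genes (10.5% each), with Pmvk going from 151.3 to 11.3 (-2.05), Tm7sf2 falling by 0.96 and Sc5d rising by 0.52. Without large antral replicate 3 the falls were 4 and the rises 1.

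Of 34 genes of antioxidant defence 9 fell and 5 rose (26.5% and 14.7%): the peroxidases Gpx1 and Gpx3 fell by 0.81 and 0.63, and Mgst1, a membrane glutathione transferase, rose by 1.02, from 114.8, 81.1, 81.3 and 90.6 to 220.7, 212.8, 232.8 and 207.0. The 5 rises were 3 without secondary replicate 1 or 4 or large antral replicate 3. Among 19 zinc transporters and metallothioneins 5 fell and 3 rose (26.3% and 15.8%). The falls included the importers Slc39a1 (-1.39) and Slc39a7 (-0.72) and the transporter Slc30a6 (-1.02), and 1 rise was the 430A probe set of Slc30a1 named above. Without secondary replicate 1 or large antral replicate 1 or 2 the rises were 0, and without large antral replicate 3 they were 1. Of 23 gap junction and amino acid transport genes 2 rose and 2 fell (8.7% each), counts that each were 1 when single samples were left out. The gap junction genes among them were Gja1, described above, and Gjc1 (connexin 45), which went from 362.3, 348.4, 421.0 and 469.6 to 113.6, 181.4, 130.4 and 150.8 (-1.30, SE 0.18, adjusted p = 9.6e-06). Slc38a7, an amino acid transporter, rose by 0.36 and lost its call without secondary replicate 1, 3 or 4 or large antral replicate 1 (0.33 to 0.35).

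DNA replication and repair genes were about evenly divided. Of 55 replication genes 15 rose and 14 fell (27.3% and 25.5%), each share above that of all genes. These shares also lay above the 15.5% that rose and 18.3% that fell of 430A probe sets. Top2a, the topoisomerase that also acts in chromosome condensation, rose by 0.91, the origin recognition subunit Orc4 by 0.71 and the polymerase subunit Pola1 by 0.67. The other probe sets of Orc4 were not called (-0.07 to 0.15). Of the replicative helicase, singled out after its values were seen, Mcm2, Mcm4, Mcm5 and Mcm7 rose (0.36 to 0.84) and Mcm3 and Mcm6 were not called, while of the clamp loader Rfc2, Rfc4 and Rfc5 fell (-0.44 to -0.71) and Rfc1 and Rfc3 were not called. Of 64 repair genes 11 fell and 9 rose (17.2% and 14.1%), near the 14.9% and 12.1% of all genes. Trp63, the p53 family member that kills oocytes with damaged DNA, went from 780.3, 969.2, 1054.5 and 1133.7 to 373.6, 435.5, 471.9 and 432.1 (-1.13, SE 0.12, adjusted p = 2.9e-07), the ligase Lig4 fell by 0.98 and the checkpoint clamp subunit Hus1 rose by 0.68. The 9 repair rises were 4 without large antral replicate 1 and 5 without secondary replicate 4 or large antral replicate 3. Of 34 genes of the synaptonemal complex and recombination 6 rose and 6 fell (17.6% each), with Mei4 and Tex15 (1.06) rising and Psmc3ip falling by 0.82. The 3 Sycp genes of the synaptonemal complex, named after their values were seen, all fell (-0.48 to -0.85).

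**Figure D5:**
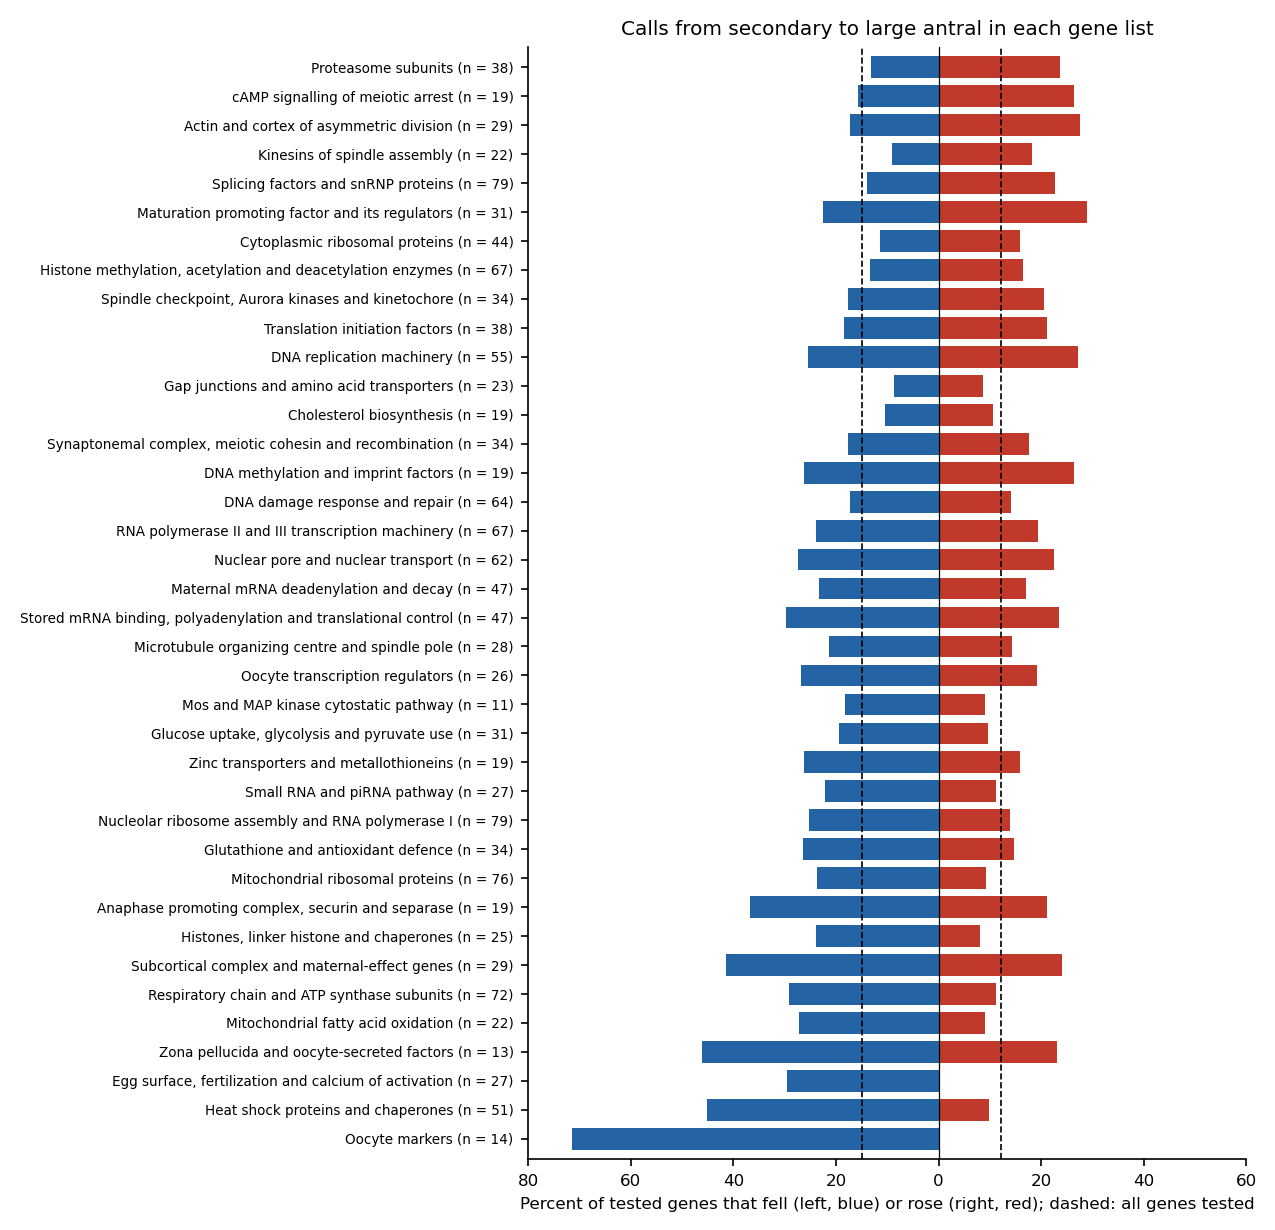
Bars give, for the 37 gene lists and the 14 oocyte markers, the percent of tested genes that fell (left, blue) and rose (right, red) from secondary to large antral, with dashed lines at the 14.9% and 12.1% of all genes. Lists are ordered by the difference between the shares. The fall share lies beyond that of all genes for 30 of the 37 lists and the rise share for 26. The dashed lines pool genes of both array types, to whose mix the lists were not matched.

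Across the 37 lists, 26 had a rise share above that of all genes, 30 a fall share above it, and 21 both. The shares of all genes pool both array types, and the lists were not matched to that mix. List medians lay between -0.27 and 0.20, and 26 were below the median of all genes. A gene may belong to several lists.

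Markers of other ovarian cells were also present at low to moderate signal. Of 21 granulosa and cumulus markers with a probe set 4 rose, 2 fell, and 5 were below 100 on all 8 arrays. The 4 that rose were Gja1, Inha (269.6 to 568.1), Fst (347.4 to 663.3) and Hsd17b1 (15.1 to 111.4). Foxl2 (1728.7 and 1787.2), Fshr (177.4 and 190.3) and Kitl (193.1 and 187.8) were not called, Amh and Wt1 were under 100, and Nr5a2 (-0.68) and Krt8 (-1.56) fell. For theca and stroma 1 of 14 markers rose and 1 fell, with sums of 2327.3 to 2763.4 and 2251.3 to 2437.6, and for blood and immune cells 1 of 14 rose, with sums of 1700.0 to 2285.8 and 1969.9 to 2363.5. Endothelial markers summed to 1016.9 to 1354.7 and then 1374.6 to 1739.8 (3 of 10 rose: Kdr, Tek and Flt1), with Vwf and Tie1 under 100 on every array. Surface epithelium markers summed to 1340.2 to 1608.6 and then 2119.3 to 2806.5 (Upk1b and Aldh1a2 rose among 10), with Krt7 and Krt19 under 100. The part of these cells in the other results was not tested.

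RNA quality probes of 430A moved between the stages in opposite directions. The log2 ratio of 3′ to 5′ probe sets of Actb was 2.372 ± 0.0842 in secondary and 3.078 ± 0.749 in large antral samples, and that of Gapdh was 3.072 ± 0.0785 and 2.368 ± 0.0974 (SD, n = 4; exact two-sided permutation test, p = 0.0286 for each). The share of probe sets at a signal of 100 or more was 59.25% and 59% on 430A and 67.68% and 67.92% on 430B (exact permutation test, p = 0.8000 and p = 0.8286). Their part in the results was not tested.

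The small antral mean lay between those of the compared stages for 80.5% of the 2308 probe sets that rose and 81.7% of the 2725 that fell on 430A. On 430B it did so for 84.3% of 804 and 88% of 1062, and for 64.6% and 78.2% with small antral replicate 1 alone, a single array whose protocol text matches its title; on 430A replicate 1 alone gave 61.4% and 71%. From secondary to small antral 1078 probe sets rose and 1674 fell on 430A, and 400 rose and 606 fell on 430B; from small to large antral the numbers were 807 and 1037 on 430A and 79 and 229 on 430B. Among probe sets that rose 2-fold or more from secondary to large antral, the small antral mean stood at 66.6% of the log2 change on 430A (median, quartiles 43.4% and 87%; 345 probe sets), and among those that fell at 63.9% (50.2% and 77%; 731 probe sets). On 430B these medians were 75.4% and 62.2%, and 80.8% and 54.4% with small antral replicate 1 alone. The small antral mean lay beyond the large antral mean for 40 of the 345 rises and 39 of the 731 falls on 430A. These shares use the same fit as the choice of probe sets and are a description. H1f2 fell below its large antral level at the small antral stage and rose again, from 332.1 to 482.9 (0.50, adjusted p = 0.0035). The small antral mean of Rgn also lay beyond the large antral mean, but that difference was not called (-0.21, adjusted p = 0.36).

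Without the 3 small antral samples of 430B with conflicting protocol text, 1 small antral array was left. The median change over all tested 430B probe sets was then 0.069 from secondary to small antral, in place of 0.018. From small to large antral it was -0.069, in place of -0.000. Counts of calls for these steps would rest on that single array and are not given. The direct comparison of secondary with large antral had 1961 calls without the 3 samples, in place of 1866. On 430A the small to large antral step had 1199 calls without large antral replicate 2 and 1220 without replicate 3, in place of 1844.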

How the data were processed

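RNA of pooled oocytes was isolated with the Picopure kit, labelled by the Affymetrix small-sample procedure and hybridised to 1-colour arrays, per the labels' protocols. The deposited values are intensity values per probe set from MAS5, per the submitters' processing notes, not log-transformed; the annotation release used by the authors is not given in the sources used here, and depth has no meaning for arrays, whose number limits the precision.

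Signals were multiplied on each array to give a trimmed mean (2%) of 500 and analysed as log2(signal + 32). Probe sets at 100 or more on at least 4 of 16 arrays were fitted with limma 3.58.1 in R 4.3.3 (lmFit, eBayes with trend, two-sided) over the primary, secondary, small antral and large antral arrays, each array type apart and without primordial samples. Benjamini-Hochberg adjustment ran over each table, with a threshold of 0.05. A gene was represented by its 430A probe set of highest mean, or failing that by 430B. The secondary titles of 430A do not name the array type, which was taken from the deposited table that holds them.

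Members and gene lists were chosen with earlier results of these data known. Named genes were the 12 largest called rises and falls without overlap on 430A and 6 on 430B, the 3 called genes of smallest adjusted p in each of 37 lists, and 24 fixed genes; others are said to be chosen after their values were seen. Gene symbols come from the platform annotation: 430A had 1 symbol for 20380 of its 22626 probe sets and 430B for 14565 of its 22411. Quantile normalization, scaling to the same median, pseudocounts of 8 and 128, no filter and a strict one, a fit to the 8 compared arrays, robust moderation without trend, a replicate block and leaving out each array were the alternatives. Others were chosen after seeing the data, without 100 probe sets of 430A whose values are off the 0.1 grid of the others, without 3 small antral arrays of 430B, and with small antral replicate 1 alone for the position of that stage. Scripts were tested on simulated data. Some items are not reported here.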

Additional observations from a re-analysis of the deposited data

Results flagged for a closer look

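Dixon's test was run on 332 groups of 4 arrays of the named genes, and 16 groups had an array apart from the other 3; about 1 in 20 is flagged by chance. In secondary oocytes, replicate 3 was low for Hmga2 (1965.3, others 2356.9 to 2387.1), Ran (6124.2, others 6769.5 to 6881.7) and Zfp445 (448.8, others 513.9 to 516.9) and high for Rpl7 (4309.9, others 3807.4 to 3873.6). Secondary replicate 1 was low for Fkbp5 (1965.9, others 2155.2 to 2157.8) and high for Pde3a (142.9, others 85.3 to 90.7). Secondary replicate 2 was high for Slc38a7 on 430B (2280.7, others 1779.9 to 1822.1).

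In large antral oocytes, replicate 1 was low for Ddx6 (294.7, others 467.6 to 502.3) and Yy1 (531.2, others 640.8 to 657.0) and high for Dppa3 (10453.7, others 9038.5 to 9115.8). Replicate 3 was high for Riox1 (41.3, others 11.6 to 14.2) and Gpx1 (220.9, others 179.5 to 183.3) and low for Gpx3 (468.6, others 505.2 to 511.7) and Pde3a (37.0, others 103.1 to 116.0). Replicate 4 was low for Crybg1 (367.3, others 450.8 to 459.2) and high for Ube2c (810.1, others 732.6 to 742.6). For each of these genes that was called, the stages did not overlap even with that array.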

How the results depend on the processing

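Over the other settings the calls from secondary to large antral numbered 4300 to 5107 on 430A and 1416 to 1936 on 430B, against 5033 and 1866, with 4316 to 4818 and 1584 to 1722 when single arrays were left out. With the alternatives added after seeing the data they were 4981 without the off-grid probe sets and 1961 without 3 small antral arrays. From small to large antral on 430B, 308 calls became 186 with scaling to the same median and 73 without trend and with robust moderation; from secondary to small antral 1006 became 626 with the latter and 417 without the 3 small antral arrays. On 430A the small to large antral step had 1199 to 1905 calls with arrays left out. Of 2916 comparisons of a named probe set with its value under an alternative, 2903 kept direction and side of the threshold, 11 lost and 2 gained a call, and 0 turned; the 9 genes concerned are Zp2, Slbp, Nlrp5, Btg4, Kif20b, Slc38a7, Ccnb2, Cdc25b and Plk1. The cause was not tested. Same-numbered samples did not deviate together (correlations -0.05 to 0.03), so no pairing by number was seen, though the animals behind each pool are not named. With a replicate block 5020 calls on 430A and 1857 on 430B were made, 4853 and 1768 of them shared with the fit without the block, and 1 of the numbers, replicate 1 of 430B, correlated best with itself.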

Other observations

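Gene families outside the lists were counted by symbol, a choice made after the data were seen and given as description. Of 357 tested genes with Zfp or Zbtb symbols, mostly zinc finger transcription factors, 67 fell (18.8%) and 37 rose (10.4%), and at 2-fold or more 29 fell and 4 rose. Of 48 Usp genes, deubiquitinating enzymes, 12 rose (25%) and 7 fell (14.6%). Rab genes, small GTPases of vesicle traffic, had 10 rises and 15 falls among 64 (15.6% and 23.4%), and Trim genes 6 and 10 among 47 (12.8% and 21.3%). Solute carriers, at 31 rises and 39 falls among 294, lay near the shares of all genes. Of 25 cadherin and protocadherin genes 3 rose (12%, beside 12.1% of all genes) and 0 fell.

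Probe sets of the same gene called in opposite directions include those of Ptch1, the Hedgehog receptor (1.53 and -2.57), Brwd3 (1.21 and -1.31) and Stk24, a kinase (1.04 and -1.05). Which transcripts each probe set reports was not tested.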
